A study of Mus musculus with 12 samples.

Results

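Lgals4, the gene of galectin-4, was described together with the other galectin genes measured in heart and skeletal muscle of iron-fed mice. The members were Lgals1, Lgals3, Lgals4, Lgals7, Lgals8, Lgals9 and Lgals12, with Lgals3bp, which encodes a secreted glycoprotein that binds galectins and is not itself a galectin. All probes that the platform annotation assigns to these symbols were taken, which gave 12 probes for 8 genes among 46133 probes and 17658 gene symbols, and every probe was kept in the tests. One further probe, annotated to both Lgals8 and Capn2, was not used. Lgals4 had been picked out for its values on heart arrays of the high-iron diet against the control diet. That contrast is therefore given for all members as values and differences, with no p-value. Where calls in it are counted, nothing is read from the counts. The comparison of diets in skeletal muscle played no part in the choice. The comparison of tissues uses the same heart arrays, so for Lgals4 a p-value is given on the control diet only. The control hearts were also part of the contrast that picked Lgals4, so that test is not free of the choice.

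The mice were male C57BL/6 animals, labelled as 18 weeks old, with no transgene or gene deletion in any group. High-iron mice received the control chow supplemented with 2% carbonyl iron for 6 weeks, and control mice the same chow, with 0.02% iron. Each of 4 groups held 3 arrays: heart of high-iron mice, heart of control mice, skeletal muscle (extensor digitorum longus) of high-iron mice and skeletal muscle of control mice. RNA was hybridized individually, and heart and muscle with 1 diet and replicate number were treated as 1 mouse.

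Galectins are small lectins that recognise beta-galactosides, above all N-acetyllactosamine units on the sugar chains of glycoproteins and glycolipids. They are made in the cytosol, leave the cell by a route that bypasses the classical secretory pathway, and crosslink receptors and matrix proteins at the cell surface, while some also bind glycans exposed on damaged vesicles inside the cell. Prototype galectins such as galectin-1 and galectin-7 carry 1 carbohydrate recognition domain, tandem-repeat galectins such as galectin-4, galectin-8, galectin-9 and galectin-12 carry 2 in 1 chain, and galectin-3 joins its lectin domain to a long flexible tail. Galectin-4 is known chiefly from the epithelium of the gut, where it takes part in apical transport and in lipid rafts, galectin-1 is abundant in muscle and connective tissue, and galectin-3 is a familiar product of macrophages and of injured myocardium.

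Values are probe signals in array units after quantile normalization, in which the median probe had a signal of 254.7. Before normalization, array medians were between 183 and 337, and in every group replicate 1 had the highest and replicate 3 the lowest. Heart muscle markers summed to 118400 to 144800 on heart arrays and to 3652 to 7615 on skeletal muscle arrays, and skeletal muscle markers to 6211 to 7957 on heart arrays and to 349100 to 370300 on skeletal muscle arrays, so the tissues matched their labels. A pair of heart arrays stood apart. High-iron replicate 1 and control replicate 2 had median correlations of 0.93 and 0.936 with the other heart arrays, against 0.985 to 0.986 for the remaining hearts. Atrial markers summed to 53550 on heart high-iron replicate 1 and to 1343 to 4675 on the other hearts, a sum carried by Myl4 (32990) and Myl7 (20030), while Sln (257.8) and Nppa (271) lay within the range of the other hearts. Adipocyte markers summed to 4726 on heart control replicate 2 and to 1698 to 1889 on the other hearts, mostly through Ucp1 (2682) and Adipoq (734.5). Cidec (310.1) and Fabp4 (337.8) were also highest on that array. Plin1 (232.2) lay within the range of the other hearts, while Lep (179.2) and Retn (250.8) were the lowest of the 6 hearts. Heart differences of the members are therefore given with and without these arrays, and heart signals over all arrays.

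Lgals4 is read by probes 3390338 and 2260215, and probe 3390338 showed the difference between diets in heart for which the gene was chosen. Its signals were 840.3, 1038 and 1022 in hearts of high-iron mice, against 485.8, 656.3 and 643.3 in hearts of control mice. The lowest high-iron heart lay above the highest control heart, and in both groups replicate 1 was the lowest. The group means were 966.6 ± 109.7 on the high-iron diet and 595.1 ± 94.92 on the control diet (SD, n = 3 each), a ratio of 1.62 and a log2 difference of 0.71 (SE 0.13, 95% interval 0.42 to 0.99). Without the pair of arrays that stood apart, the means were 1030 ± 11.47 on the high-iron diet and 564.6 ± 111.4 on the control diet (SD, n = 2 each), with a ratio of 1.82 and a log2 difference of 0.88 (SE 0.11). These figures describe how Lgals4 was selected.

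Probe 2260215 of Lgals4 gave a much smaller difference in the same hearts. It read 347.3, 344 and 333.6 in high-iron hearts, against 296.4, 314.4 and 325.5 in control hearts. The groups again did not overlap, but they were close at their edges, and the log2 difference was 0.13 (SE 0.071, 95% interval -0.03 to 0.29), or 0.12 without the 2 heart arrays. The probes thus shared a direction in heart and differed in size. Lgals6, a near-identical copy of Lgals4 that some mouse strains carry, has no probe under that symbol. Whether these C57BL/6 mice carry it, and whether the Lgals4 probes would read it, was not tested. Marker lists were read on the same hearts. The 5 epithelial markers measured summed to 1279 to 1463 in high-iron hearts and 1312 to 1402 in control hearts. Their group means were 235 to 320, against 254.7 for the median probe. Krt18 (284.5 to 361.2) and Cdx2 (260.5 to 327.3) lay above the median probe on every heart array. The 6 neutrophil markers summed to 2164 to 3092 in high-iron hearts and 1499 to 2296 in control hearts, a difference that lay in the calprotectin genes S100a8 (829.8 ± 271.9 in high-iron hearts and 393.1 ± 224.8 in control hearts) and S100a9 (689.5 ± 216.8 in high-iron hearts and 366.9 ± 132.7 in control hearts; SD, n = 3 each). Both also rose in skeletal muscle on the high-iron diet (log2 difference 1.19 and 0.94, adjusted p = 0.000736 and 0.000221, limma). In heart S100a8 overlapped between the diets, with control replicate 1 at 652.6 and high-iron replicate 3 at 597.6. S100a9 did not, with a lowest high-iron heart of 532 and a highest control heart of 519.3. Camp, Ltf and Mpo overlapped too. Ngp was lower in every high-iron heart (226.9 to 253.6) than in any control heart (254.7 to 290.9). Its signals straddled the median probe (254.7), and 7.79% of all probes did not overlap between diets in heart, in either direction. The part of epithelial cells or neutrophils in the Lgals4 signal was not tested.

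In skeletal muscle of the same mice the probe 3390338 of Lgals4 read 266, 332.5 and 320.1 on the high-iron diet, against 299.9, 273.1 and 279.6 on the control diet. The groups overlapped, since high-iron replicate 1 was the lowest of all 6 muscles. The means were 306.2 ± 35.36 on the high-iron diet and 284.2 ± 13.99 on the control diet (SD, n = 3 each), a log2 difference of 0.10 (SE 0.083, 95% interval -0.07 to 0.27, adjusted p = 0.995, limma). Probe 2260215 averaged 263.6 ± 13.16 in high-iron muscle and 264.1 ± 17.85 in control muscle. On the muscle arrays 57.8% to 81.8% of probes were dimmer than probe 3390338, and 37.3% to 66% were dimmer than probe 2260215. Whether these muscle signals were above background was not tested. For probe 3390338 the diet difference in heart exceeded that in skeletal muscle by 0.60 (log2, SE 0.16, 95% interval 0.27 to 0.94), and by 0.77 (SE 0.14) without the 2 heart arrays. These figures carry the selection in heart and are given with no p-value, and nothing is read from calls in this contrast for Lgals4.

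**Figure D1:**
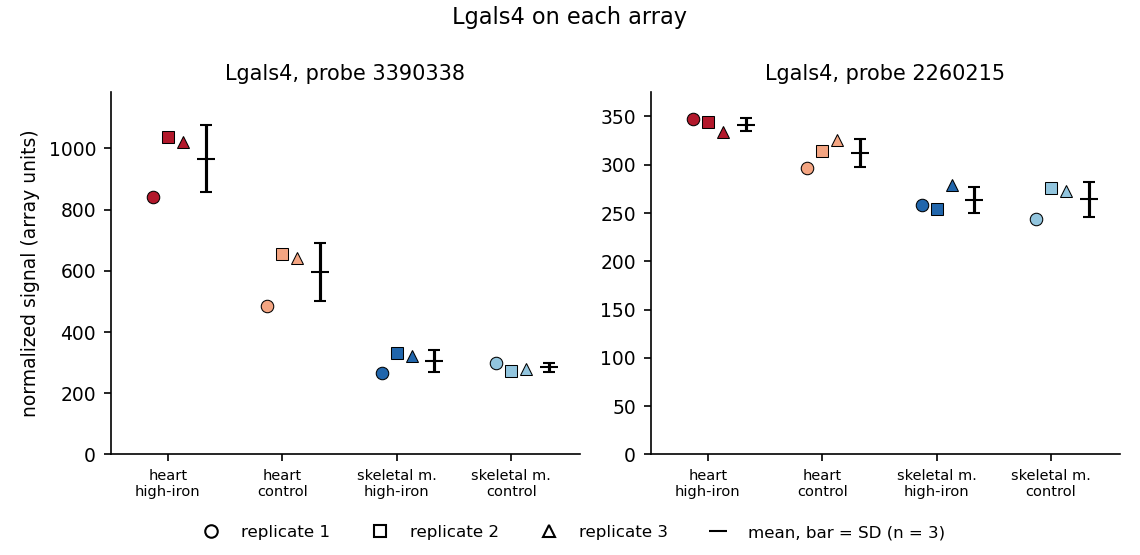
Normalized signal (array units, linear axis from 0) of the Lgals4 probes 3390338 and 2260215 on each of the 12 arrays, with circles, squares and triangles for replicates 1, 2 and 3 and a bar for the mean and SD of each group (n = 3). For probe 3390338 high-iron hearts lie at 840.3 to 1038, control hearts at 485.8 to 656.3 and all skeletal muscles at 266 to 332.5.

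Across the 4 groups, Lgals4 on probe 3390338 was thus highest in high-iron heart, next in control heart, and lowest in skeletal muscle, where the high-iron and control groups did not differ beyond their spread. Over both diets it averaged 780.9 ± 223.2 in heart and 295.2 ± 26.9 in skeletal muscle (SD, n = 6 arrays from the same 6 mice), and the lowest heart, at 485.8, lay above the highest muscle, at 332.5. The log2 difference was 1.36 (SE 0.079) over both diets, 1.66 on the high-iron diet and 1.36 without the 2 heart arrays. These 3 values hold the high-iron hearts for which Lgals4 was chosen and are given with no p-value. On the control diet alone Lgals4 was higher in heart by 1.05 on the log2 scale (SE 0.10, adjusted p = 9.19e-06, limma with the mouse as a random block). Probe 2260215 had a difference of 0.31 over both diets (0.30 without the 2 heart arrays), and of 0.24 on the control diet, which did not pass the threshold (adjusted p = 0.0634).

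Among the other members, heart and skeletal muscle differed for Lgals1, Lgals9 and Lgals3bp. Of the 12 member probes, 5 were higher and 1 lower in heart at an adjusted p under 0.05, where 13.4% of all probes were called, 7.61% higher and 5.76% lower. Both Lgals4 probes are among the 5, and as they were chosen on the high-iron hearts nothing is read from their share in these counts. For 5 member probes all hearts lay above all muscles, as they did for 5.38% of all probes. On the high-iron diet alone 4 member probes were higher in heart and none lower (8.99% of all probes called), on the control diet alone 4 were higher and 1 lower (9.48% called), and without the 2 heart arrays 5 were higher and 2 lower (15% called), these being the 6 probes called over all arrays and that of Lgals3. Counted by gene on the brightest probe, 3 of 8 members were higher in heart and 1 lower, against 14% of all genes higher and 9.24% lower. The median log2 difference between tissues was 0.08 over the 8 members and 0.0062 over all genes. In these bulk samples more cells of a type and more RNA per cell cannot be told apart.

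Lgals3bp, whose product binds galectin-3 and other galectins outside the cell, was higher in heart on every array. It read 647.5, 655.1 and 659.2 in high-iron hearts and 492, 470 and 437.3 in high-iron muscles. On the control diet it read 699.8, 645.5 and 603.6 in hearts and 545.2, 440 and 427.5 in muscles. The lowest heart therefore exceeded the highest muscle on both diets, and the means over both diets were 651.8 ± 30.83 in heart and 468.7 ± 44.49 in skeletal muscle (SD, n = 6 each), a ratio of 1.39 and a log2 difference of 0.48 (SE 0.060, adjusted p = 1.25e-05, limma). Without the 2 heart arrays the difference was also 0.48 (adjusted p = 7.8e-07).

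Lgals9, which encodes a tandem-repeat galectin known as a ligand of the immune receptor Tim-3, was read by 3 probes. On probe 2640181 hearts lay at 461.9 to 550.8 and muscles at 380.4 to 418.4, with means of 502 ± 32.69 in heart and 400 ± 15.57 in skeletal muscle (SD, n = 6 each). The tissues did not overlap, and the log2 difference was 0.33 (SE 0.047, adjusted p = 5.91e-05), or 0.28 without the 2 heart arrays (adjusted p = 0.000112). Probe 1230079 was likewise higher in heart, by 0.26 (adjusted p = 0.00316), or 0.25 without the 2 heart arrays (adjusted p = 0.00308), although within the high-iron diet the same difference of 0.26 missed the threshold (adjusted p = 0.105). Probe 2970398 gave 0.05 (95% interval -0.06 to 0.17, adjusted p = 0.687), or 0.03 without the 2 heart arrays, so the probes of Lgals9 disagreed on the size.

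Lgals1, the gene of the muscle and connective tissue galectin, was the member lower in heart. High-iron hearts read 6729, 5476 and 5389, against 7065, 7065 and 7424 in high-iron muscles. Control hearts read 6263, 7331 and 6032, against 8986, 8217 and 7627 in control muscles. Within each diet every heart lay below every muscle, and over both diets the tissues overlapped through control heart replicate 2. The means were 6203 ± 744.4 in heart and 7731 ± 749 in skeletal muscle (SD, n = 6 each), a log2 difference of -0.32 (SE 0.065, adjusted p = 0.00187). Without the 2 heart arrays it was -0.42 (SE 0.054, adjusted p = 7.9e-07), and every heart then lay below every muscle. It was -0.34 on the control diet (adjusted p = 0.0236) and -0.30 on the high-iron diet, where it missed the threshold (adjusted p = 0.0563).

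Lgals3, the gene of galectin-3, depended on a single array. High-iron hearts read 943, 419.5 and 434.4, against 396.8, 482 and 424.3 in control hearts. High-iron muscles read 439.4, 526.1 and 517.3, and control muscles 545.6, 547.3 and 469.8. Heart high-iron replicate 1 stood above all other 11 arrays, while the remaining hearts lay between 396.8 and 482. Over all arrays the log2 difference between heart and skeletal muscle was -0.04 (SE 0.15, adjusted p = 0.931). Without the 2 heart arrays Lgals3 was lower in heart, with a log2 difference of -0.28 (SE 0.061, adjusted p = 0.00111), and without heart high-iron replicate 1 alone the difference was -0.24 (adjusted p = 0.0173). On the control diet alone, which leaves that array out, it was -0.26 (adjusted p = 0.0941).

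On that array, heart high-iron replicate 1, several marker lists also had high sums. The 7 macrophage markers measured summed to 5152 there and to 4280 to 4722 on the other hearts, with the macrophage lysozyme gene Lyz2 at 1877 against 1346 to 1540. Adgre1, Mrc1 and Ctss were also highest there, while C1qa (571.4), C1qb (580.8) and Cd163 (259.2) lay within the range of the other hearts. Markers of seminal vesicle summed to 4698, against 780.4 to 840.9 on the other hearts, and the atrial sum was the one given above. Fibroblast markers summed to 19230 there, but to 20170 on heart control replicate 2 and to 11950 to 14720 on the rest. Most of the sum of 19230 was Dcn (15890). Pdgfra (981.6) was highest on that array, while Col1a1, Col1a2, Col3a1 and Lum lay within the range of the other hearts. The part of these cell types in the Lgals3 value was not tested.

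Lgals8, whose product senses glycans on damaged endosomes, averaged 391.5 ± 24.12 in heart and 366.1 ± 31.23 in skeletal muscle (SD, n = 6 each), a log2 difference of 0.10 (95% interval -0.03 to 0.23, adjusted p = 0.428), or 0.04 without the 2 heart arrays. Lgals7, which encodes a keratinocyte galectin and adjoins Lgals4 on the same chromosome with 0 annotated genes between them in the RefSeq annotation, did not show the pattern of its neighbour. Its probes gave 0.07 and -0.05 (adjusted p = 0.734 and 0.715), or 0.05 and -0.06 without the 2 heart arrays, with signals of 193.4 to 281.7 that straddled the median probe. Lgals12, whose product is found on lipid droplets of adipocytes, averaged 250.7 ± 21.53 in heart and 259.1 ± 7.251 in skeletal muscle (SD, n = 6 each, log2 difference -0.05, adjusted p = 0.686), and the difference without the 2 heart arrays was 0.0006. Keratinocyte markers (0 of 5) and adipocyte markers (0 of 7) did not pass the test between tissues either, where 14% of all genes were higher and 9.24% lower. Detection p-values were not used, so whether Lgals7 and Lgals12 were above background is not stated.

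**Figure D2:**
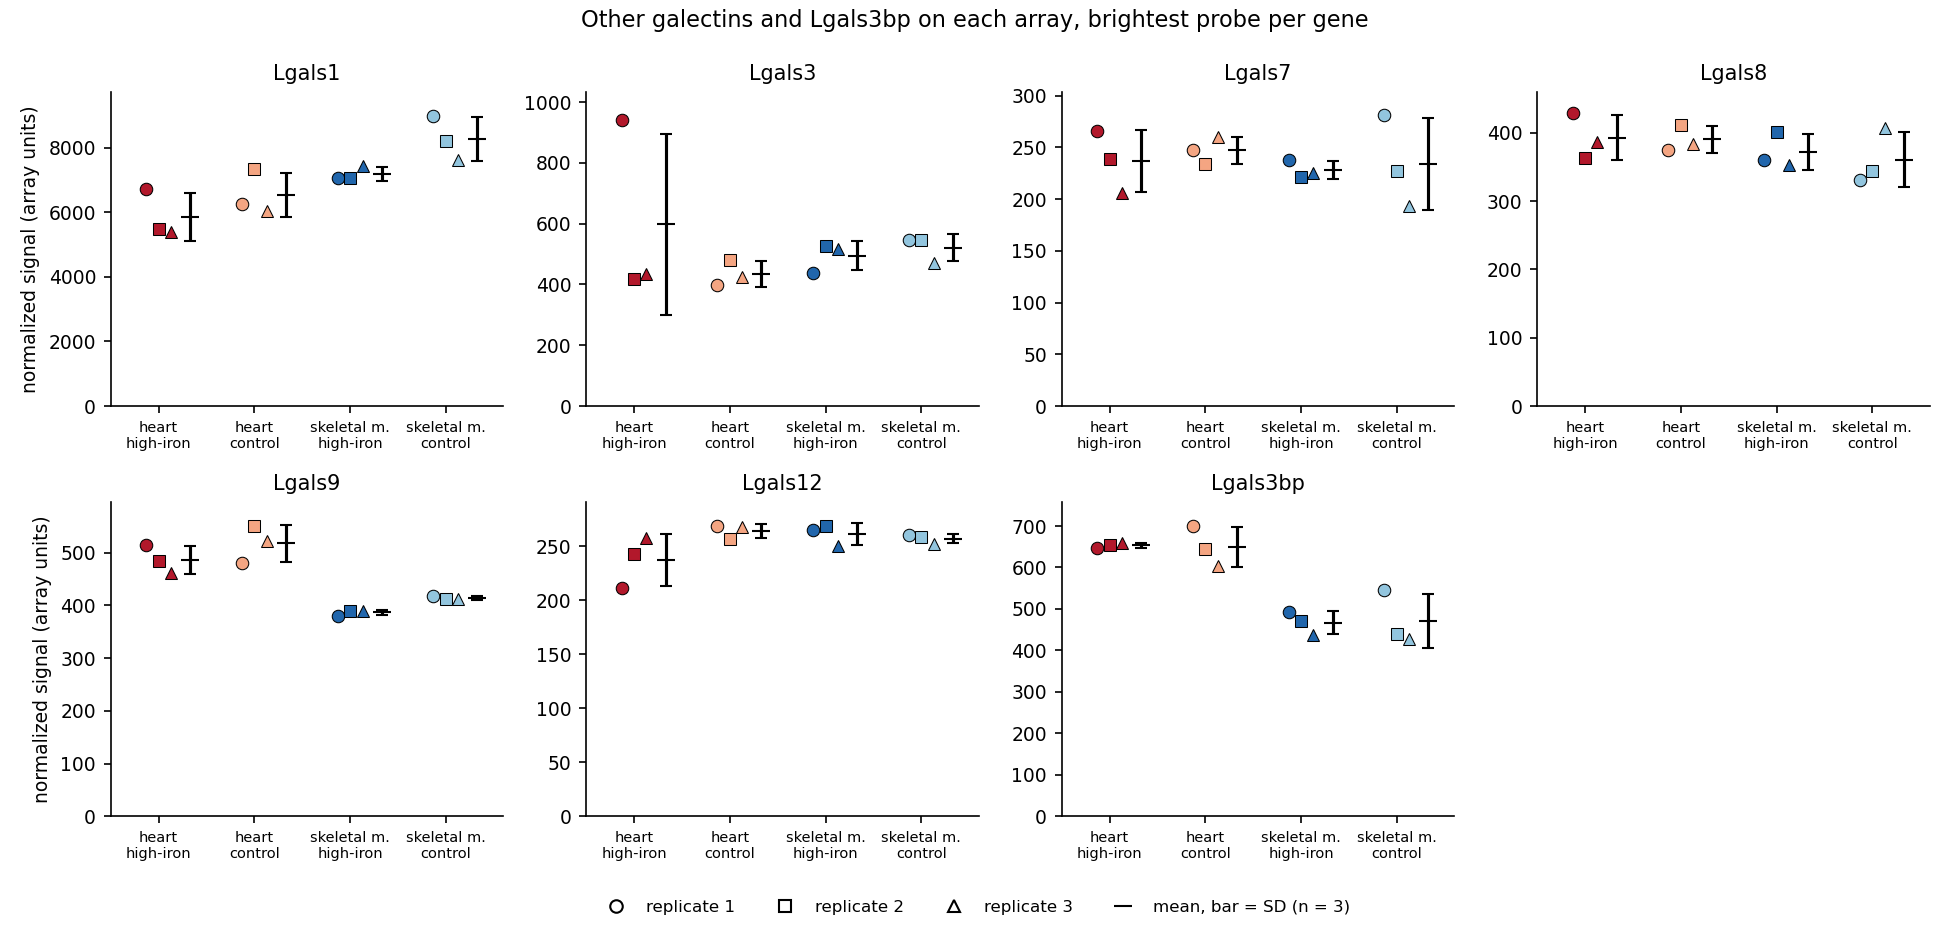
Normalized signal (array units, linear axes from 0, each panel with its own scale) of the brightest probe of Lgals1, Lgals3, Lgals7, Lgals8, Lgals9, Lgals12 and Lgals3bp on each of the 12 arrays, with replicates as circles, squares and triangles and a bar for the mean and SD (n = 3). Lgals3bp and Lgals9 are higher on every heart array than on any skeletal muscle array, and the single high point of Lgals3, at 943, is heart high-iron replicate 1.

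**Figure D3:**
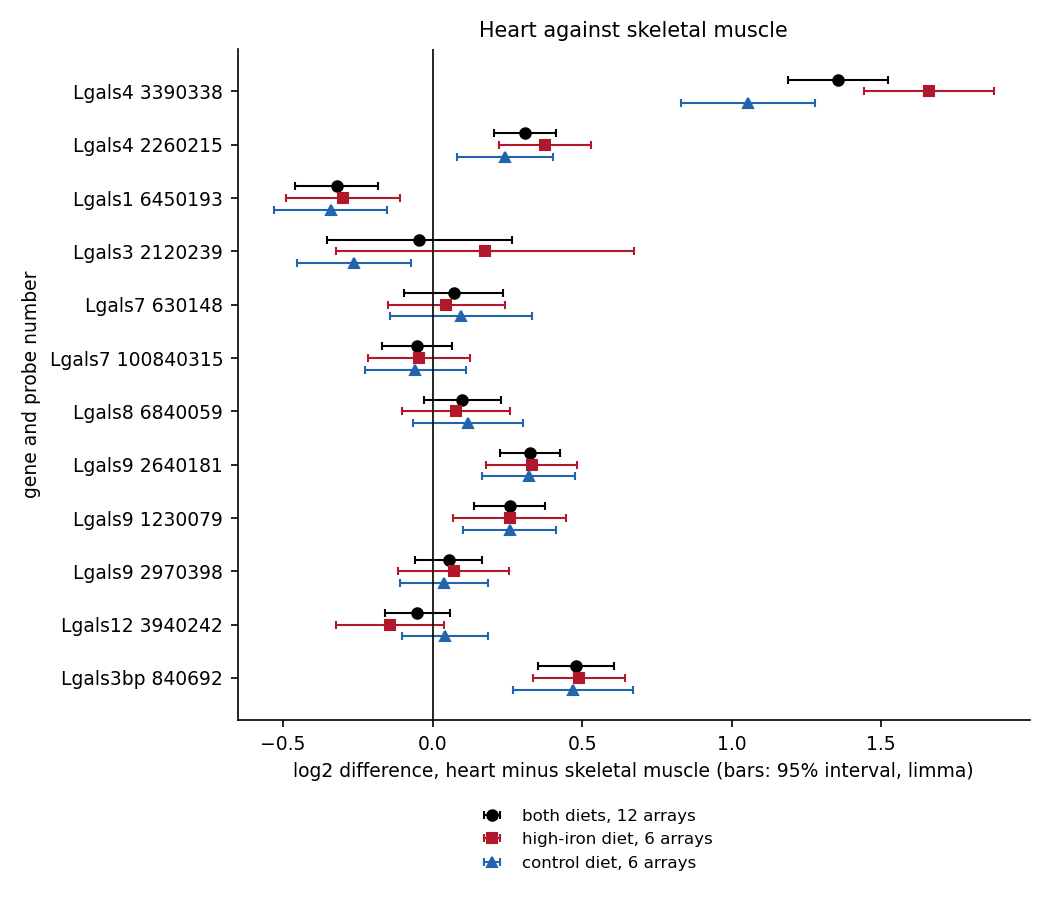
Log2 difference, heart minus skeletal muscle, of each of the 12 member probes with its 95% interval (limma, mouse as a random block), over both diets (black circles), on the high-iron diet (red squares) and on the control diet (blue triangles). Lgals4 probe 3390338 lies farthest to the right, at 1.36 over both diets, and Lgals1 lies at -0.32.

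Cell type markers also differed between the tissues, where 14% of all genes were higher and 9.24% lower in heart. Macrophage markers were higher in heart for 6 of 7 genes (summed signal 4280 to 5152 in heart and 2602 to 3469 in skeletal muscle), and endothelial markers for 3 of 4 (2931 to 3266 in heart and 2228 to 2440 in skeletal muscle). Of the fibroblast markers, 3 of 6 were lower in heart, the collagen genes Col1a1, Col1a2 and Col3a1. Dcn (log2 difference -0.04), Pdgfra (0.17) and Lum (0.21) were not called. The fibroblast sums overlapped between the tissues, at 11950 to 20170 in heart and 15740 to 18280 in skeletal muscle. The part of these cells in the values of Lgals9, Lgals3bp and Lgals1 was not tested.

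The question for skeletal muscle was whether any galectin gene responded to the high-iron diet there. None of the 12 member probes passed the threshold in limma, where 0.0997% of all probes did, and 1 had an unadjusted p under 0.05, as had 5.12% of all probes. That probe was Lgals1. It read 7065, 7065 and 7424 on the high-iron diet, against 8986, 8217 and 7627 on the control diet, so that all high-iron muscles lay below all control muscles. The means were 7185 ± 207.1 on the high-iron diet and 8277 ± 681.4 on the control diet (SD, n = 3 each), a log2 difference of -0.20 (SE 0.076, 95% interval -0.36 to -0.04, adjusted p = 0.858).

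Lgals9 probe 2640181 was the other probe whose muscles did not overlap between diets, a pattern that 10.2% of all probes had. It read 380.4, 389.5 and 389 on the high-iron diet, against 418.4, 411.5 and 411.4 on the control diet. The difference was small but the replicates lay close together, with a log2 difference of -0.10 (SE 0.069, adjusted p = 0.995). Over the 11 probes other than that of Lgals1, the 95% intervals of the diet difference in skeletal muscle lay between -0.25 and 0.27 on the log2 scale, so larger differences fell outside the interval of each. The median difference over the 8 genes was -0.01, and -0.0002 over all genes.

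In heart, the diet differences of the members other than Lgals4 are a description too. Lgals1 averaged 5865 ± 749.4 in high-iron hearts and 6542 ± 692.8 in control hearts (SD, n = 3 each), a log2 difference of -0.16, and -0.18 without the 2 arrays. Lgals3 had a difference of 0.36 (SE 0.26), which became 0.06 without the 2 arrays and -0.02 without high-iron replicate 1 alone. Lgals9 probe 2640181 averaged 486.3 ± 26.2 in high-iron hearts and 517.7 ± 35.26 in control hearts, and Lgals3bp 653.9 ± 5.917 in high-iron hearts and 649.6 ± 48.24 in control hearts. Their log2 differences were -0.09 and 0.01 over 6 hearts, and -0.08 and 0.02 without the 2 arrays. Lgals12 averaged 237.2 ± 23.78 in high-iron hearts, of which replicate 1 was lowest at 211.1, and 264.2 ± 6.757 in control hearts, a log2 difference of -0.16, or -0.10 without the 2 arrays. These groups overlapped over all 6 hearts, and the means of Lgals7 and Lgals8 differed by less than their SD. Lgals7 probe 630148 had a difference of -0.07 over 6 hearts and -0.19 over 4, and Lgals8 of 0.0073 over 6 and -0.02 over 4.

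Of the 12 member probes, 2 had high-iron and control hearts that did not overlap, both of Lgals4, where 7.79% of all probes did not overlap. In this contrast 0% of all probes passed the threshold with all 6 hearts, and 2.56% had an unadjusted p under 0.05. With 4 hearts 0.0607% of all probes passed, with 1 member probe among them, that of Lgals4. Because Lgals4 was chosen on these arrays, nothing is read from these counts.

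Whether the diet acted differently in the 2 tissues was tested for the members other than Lgals4. None of their probes passed the threshold in limma or had an unadjusted p under 0.05, while over all probes 0% passed the threshold and 3.35% had an unadjusted p under 0.05. For Lgals1 the diet difference in heart minus that in skeletal muscle was 0.04 (95% interval -0.24 to 0.32), for Lgals3 0.44 (-0.18 to 1.05), for Lgals12 -0.18 (-0.40 to 0.03) and for Lgals3bp 0.02 (-0.24 to 0.27). The intervals are wide, above all for Lgals3, where heart high-iron replicate 1 enters. Without the 2 heart arrays the difference for Lgals3 was 0.12 (95% interval -0.13 to 0.37). None of the members other than Lgals4 passed the threshold then either, where 0.0173% of all probes did.

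**Figure D4:**
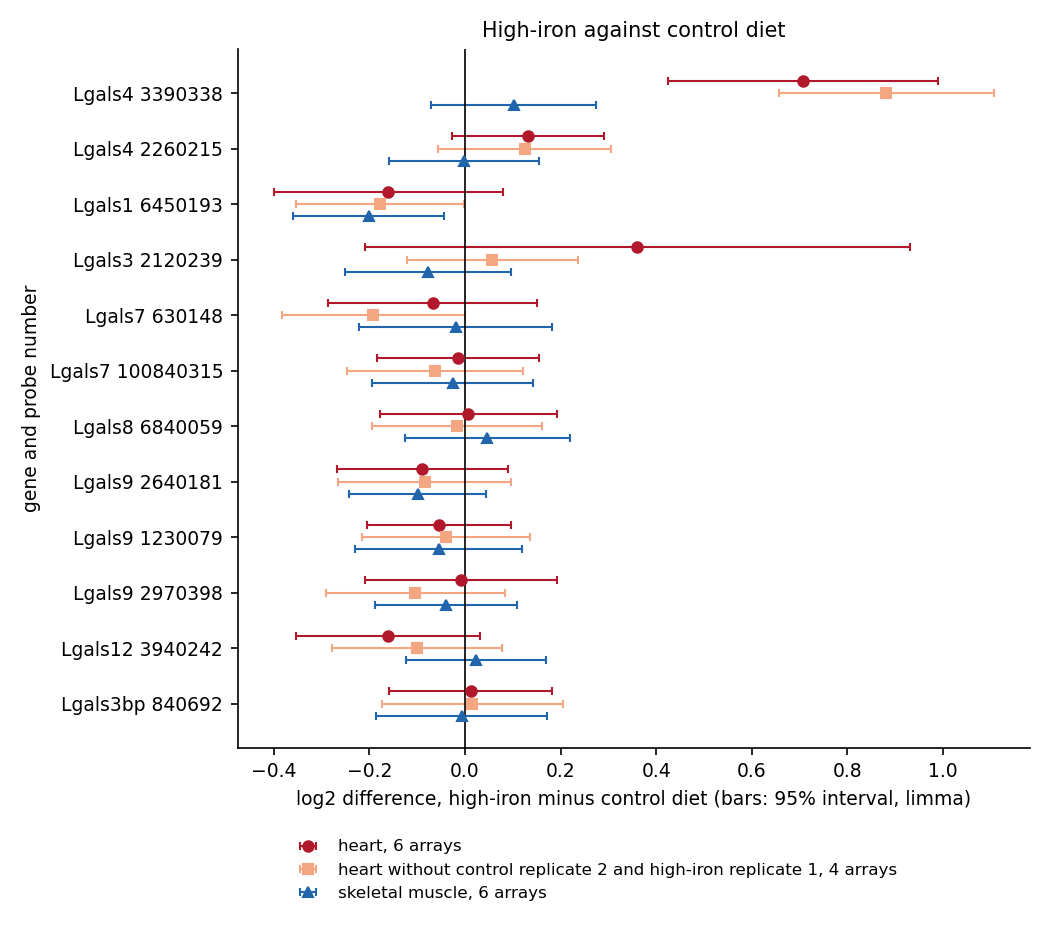
Log2 difference, high-iron minus control diet, of each of the 12 member probes with its 95% interval (limma), in heart over 6 arrays (dark red circles), in heart without high-iron replicate 1 and control replicate 2 (light squares) and in skeletal muscle (blue triangles). Lgals4 probe 3390338 lies at 0.71 and 0.88 in heart and at 0.10 in skeletal muscle, and the Lgals3 interval narrows around 0.06 without the 2 heart arrays.

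Other genes of the galectin system were taken from 3 lists: further galectins, enzymes that build N-acetyllactosamine, and known binding partners of galectins. Of 51 symbols, 48 were measured. In skeletal muscle none of the 48 passed the threshold between diets in limma, and their median log2 difference was 0.0012. Of all genes 0.051% were higher and 0.153% lower. The smallest p among the enzymes belonged to Mgat4b, which branches N-glycans (298.3 ± 13.94 on the high-iron diet and 345.4 ± 4.385 on the control diet, log2 difference -0.21, adjusted p = 0.745). The next was Mgat5, whose branch is a favoured galectin-3 ligand (275.8 ± 11 on the high-iron diet and 235.6 ± 21.58 on the control diet, 0.23, adjusted p = 0.746). Among the partners it was Lamp2, a lysosomal membrane glycoprotein (2129 ± 60.13 on the high-iron diet and 1873 ± 39.6 on the control diet, 0.18, adjusted p = 0.870; SD, n = 3 each).

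Between the tissues, 14 of these 48 genes were higher and 3 lower in heart, and their median log2 difference was 0.07, against 14% of all genes higher, 9.24% lower and a median of 0.0062. Lgalsl, a galectin-related protein that lacks lectin activity, was lower in heart, at 444.9 ± 20.84 in heart and 834.8 ± 31.32 in skeletal muscle (log2 difference -0.91, adjusted p = 1.28e-10), while Lgals2 and Grifin were not called. Of 21 enzymes, 6 were higher and 1 lower in heart, to be read against the same 14% and 9.24%. The lower one was St3gal6, a sialyltransferase that caps lactosamine, at 935.6 ± 84.21 in heart and 2106 ± 177.9 in skeletal muscle (-1.17, adjusted p = 6.61e-10). Among the higher ones were B4galt1, which adds the galactose of lactosamine (0.50, adjusted p = 1.47e-05), Mgat4b (0.34, adjusted p = 2.22e-05) and St6gal1, whose sialic acid blocks binding by galectin-1 (0.47, adjusted p = 7.3e-05).

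Of 24 binding partners, 8 were higher and 1 lower in heart (14% and 9.24% of all genes). Bsg, the membrane glycoprotein basigin, averaged 5120 ± 385.8 in heart and 2696 ± 109.5 in skeletal muscle (SD, n = 6 each, log2 difference 0.92, adjusted p = 9.61e-10). Nrp1, the neuropilin co-receptor, was higher by 1.10 (adjusted p = 6.65e-09) and Lamp2 by 0.88 (adjusted p = 1.67e-07). Itgb1, the beta1 integrin chain, was higher by 0.53 (adjusted p = 1.19e-05). Trim16, a partner of galectin-3 at damaged membranes, was the lower one (-0.19, adjusted p = 0.00867).

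The genes whose signals were most like those of Lgals4 probe 3390338 were found among 12083 genes with a brightest probe at or above the median. Over all 12 arrays, which differ most by tissue, the 5 nearest were Irx3, Armh3, Zc2hc1a, Tns2 and Bhlhb9, with Pearson's r of 0.97 to 0.981. Irx3, an Iroquois homeobox factor of the ventricular conduction system, averaged 718.8 in high-iron hearts, 507 in control hearts, 285.8 in high-iron muscles and 268.2 in control muscles, the same order of groups as Lgals4 (r = 0.981, Spearman's rho = 0.93). Over the 6 heart arrays alone the nearest were Ddb2, Serpinb6b, Bmpr1a, Arl16 and Cirbp, with r of 0.975 to 0.994. Cirbp, a cold-inducible RNA-binding protein, averaged 459.5 in high-iron hearts and 348 in control hearts (rho = 1). These genes were picked from many for their likeness, and the arrays share tissue, diet and hybridization.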

How the data were processed

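Illumina Sentrix Mouse-6 arrays measured RNA of 12 samples. The sample files, as deposited, give each probe's signal intensity from BeadStudio before normalization, and the authors' quantile normalized intensity values in the series table served as an alternative. Signals were quantile normalized over the 12 arrays and taken to log2 without an offset. For each tissue, limma 3.58.1 in R 4.3.3 (lmFit, then eBayes) compared the diets in a two-sided test. All 46133 probes entered the Benjamini-Hochberg correction, and an adjusted p under 0.05 was called. Tissues, and diet by tissue, were compared in a fit of the 12 arrays in which the mouse was a random block (duplicateCorrelation, 0.0717). The series' design takes 1 heart and 1 muscle sample per replicate mouse. Same-numbered samples were treated as 1 mouse, which the labels do not state (their deviations from group means correlated at 0.0262 to 0.0998).

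With 3 mice in each group, precision is limited by the number of arrays. The brightest probe stands for a gene in counts by gene. Genes named from a list were its up to 4 of smallest p, and for likeness to Lgals4 the 5 most correlated, except that Trim16 and single marker genes were named after their values were seen. The members, lists and tests were chosen with earlier results of these data known. The study reported hybridization problems on 2 heart arrays and excluded only the failed probes for those samples, not the arrays. The labels do not say which 2 arrays those were. The pair left out here as whole arrays has the lowest correlations with the other hearts. Probe symbols are those of the platform annotation, and no coordinates or sequences are given. The scripts were tested on simulated data.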

Additional observations from a re-analysis of the deposited data

How the results depend on the processing

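The alternatives were median scaling, the authors' normalized values, normexp background correction, an offset of 50 before log2, only probes at or above the median, a trended robust prior, 1 fit over all groups, other blocks, each diet alone, leaving out the 2 heart arrays and leaving out each array in turn (there the block correlation of 0.0717 was kept). The number of member probes called stayed at 0 in skeletal muscle under every alternative, and between tissues at 4 to 7 against 6. Without the 2 heart arrays, 1 member probe (Lgals4) was called in heart between diets and 1 (Lgals4) for the difference of the diet response, against 0 each with all arrays. Lgals4 was chosen on these heart arrays, and nothing is read from either count. The log2 difference of Lgals4 between tissues was 1.05 to 1.94 under the alternatives and 1.31 to 1.43 with 1 array left out. Within a tissue the diets have different mice, so a number pairs no animals there, though array medians before normalization follow the number in all 4 groups (correlations of deviations -0.46, -0.544 and 0.488 in heart, 0.0217 to 0.0989 in skeletal muscle). With the replicate block 0 member probes were called in either tissue, and without the mouse block, or with it as a fixed term, 6 between tissues.

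Each direction that turned belonged to a difference that missed the threshold with all arrays and under that alternative. In skeletal muscle between diets Lgals3bp was 0.0026 with arrays scaled to one median. Between tissues Lgals12 was 0.000622 without the 2 heart arrays and 0.0396 on the control diet, and Lgals3 was 0.17 on the high-iron diet. With 1 array left out, the skeletal muscle diet differences ranged over -0.148 to 0.123 for Lgals7, -0.0114 to 0.137 for Lgals8, -0.0721 to 0.103 for Lgals3bp and -0.15 to 0.00568 for Lgals3. The tissue difference of Lgals3 ranged over -0.238 to 0.0588, and was past the threshold only without heart high-iron replicate 1. The difference of the diet response ranged over -0.0436 to 0.0555 for Lgals9, -0.131 to 0.0216 for Lgals8, -0.0623 to 0.126 for Lgals1, -0.0873 to 0.0805 for Lgals3bp and -0.19 to 0.0838 for Lgals7. The cause was not tested. Lgals7 and Lgals12 had no value with the filter on dim probes, which removed them. With normexp the heart diet difference of Lgals12 was -0.36, against -0.16.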
